A study of Homo sapiens with 6 samples.

Results

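The 39 protein-coding HOX genes, 11 in HOXA, 10 in HOXB, 9 in HOXC and 9 in HOXD, were read from the whole-transcriptome profiles of MDA-MB-231 cells. They were taken by Ensembl identifier, from every GENCODE symbol made of HOX, a cluster letter and a paralog number, and all 39 were among the 60675 genes of the files. Vitamin C is a cofactor of the TET enzymes, which oxidise 5-methylcytosine in DNA, and the study asked whether adding it shifts the transcriptome of breast cancer cells. One group was treated with 100 μM sodium ascorbate for 3 days and the other received no vitamin C, with 3 libraries in each group. The 6 libraries shared the same parental line, an unmodified triple negative line with mesenchymal features that was grown from a patient's metastasis, in wells whose medium was changed daily. The labels number the samples of each group and do not say that the wells came from separate cultures. A p-value here reflects only the variation among these wells, part of which may be technical.

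HOX genes encode homeodomain transcription factors that set position along the body axis. They lie in 4 clusters on 4 chromosomes, and the number in each name gives the paralog group, which follows the order of the genes along the cluster. In the embryo low-numbered genes are used toward the head and high-numbered genes toward the tail and the tips of the limbs. Polycomb complexes keep unused HOX genes silent, Trithorax-type methyltransferases keep used ones active, and TALE homeodomain proteins of the PBX and MEIS families bind DNA together with HOX proteins. Adult tissues and the tumours that arise from them keep a partial HOX code.

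Reads assigned to genes numbered 13434130 to 19553914 in the vitamin C libraries and 17664345 to 22373591 in the control libraries. Libraries of 1 group differed beyond counting error. The share of reads not mapped was 24.7% to 49.5% in vitamin C libraries, against 24.2% to 34.4% in control libraries. Its part in the results was not tested. Levels are given as CPM, the count scaled to sequencing depth with TMM factors, in which 1 read was worth 0.0444 to 0.0741, and, where genes are set side by side, per kilobase of exon (RPKM). Of 6 listed mesenchymal markers of the line 5 had enough reads for a test, and none of these passed. VIM was at 1256 CPM in vitamin C cells and 1276 CPM in control cells. SPARC had only 43 counts over the 6 libraries and was not tested. Of the 3 listed hormone receptor and HER2 genes, the estrogen receptor gene ESR1 had 0 counts and the progesterone receptor gene PGR had 4. The HER2 gene ERBB2 was at 48.1 CPM in vitamin C cells and 40.3 CPM in control cells. It was tested and did not pass (edgeR adjusted p = 0.0769). Of 6 luminal epithelial markers 5 were tested and 2 rose, EPCAM and KRT8, against 3.6% of all genes tested that rose. The summed level of the 6 was 423 to 495 CPM in vitamin C libraries, against 342 to 416 CPM in control libraries. Of 3 endothelial markers 1 was tested, PECAM1, which rose in edgeR (adjusted p = 0.0439) and did not pass in DESeq2 (adjusted p = 0.0704). VWF had 7 counts and CDH5 had 5 over the 6 libraries. The summed level of the 3 was 2.03 to 2.22 CPM in vitamin C libraries, against 0.740 to 1.34 CPM in control libraries. Of the leukocyte markers CD14 was tested and did not pass, PTPRC had 6 counts and CD3E had 2. The part of these markers in the results was not tested.

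Few HOX genes were expressed, and most of the reads came from HOXB. Of the 39 genes, 17 had 0 counts in all 6 libraries, which is 43.6% of the HOX genes, against 17.6% of the 19586 protein-coding genes in the files. Another 13 had 1 to 10 counts in all, 6 had 11 to 100, and 3 had more than 100. At a mean of at least 1 RPKM in either group, a conventional cutoff, only HOXB9 was expressed. At 0.5 RPKM there were 3 such genes, HOXB9, HOXB3 and HOXA13, and at 0.1 RPKM there were 8, with HOXB4, HOXB7, HOXC9, HOXD1 and HOXD4 added. For the 17 genes without a read, 3 counts over the 6 libraries would correspond to 0.00648 to 0.0217 RPKM (counting error only). These values take all exon bases as countable, and are too low for genes that share exon bases with others. HOXC5 shares 67.3% of its exon bases with other genes of the same strand.

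**Figure D1:**
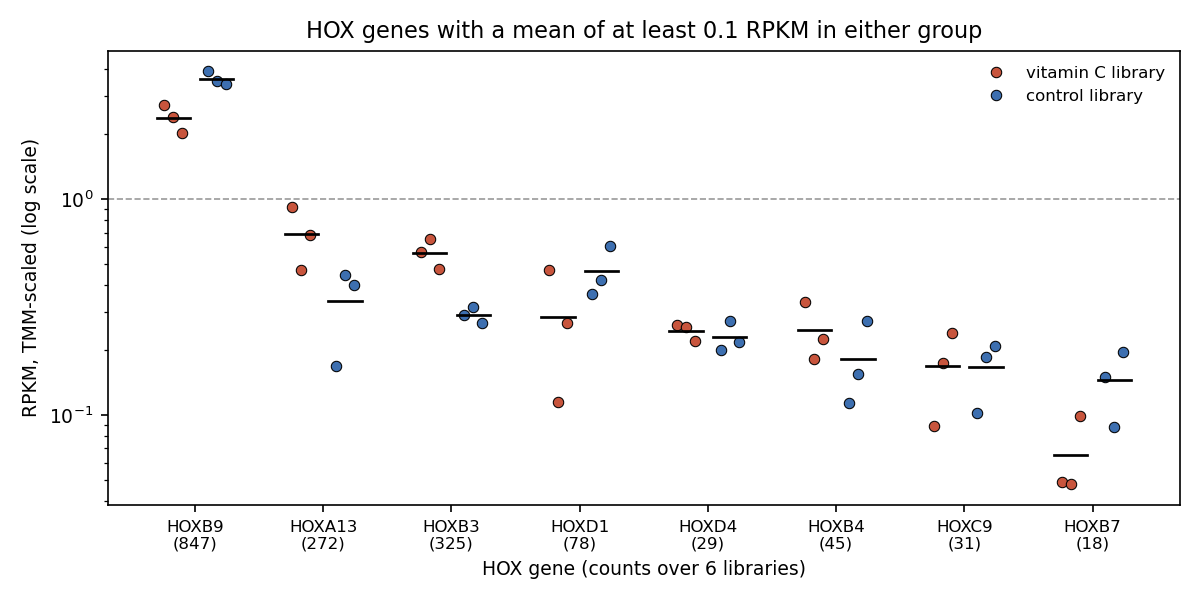
Level in RPKM (vertical log axis) of the 8 HOX genes with a mean of at least 0.1 RPKM in either group, by library (points, 3 vitamin C left and 3 control right for each gene) with group means as bars and a dashed line at 1 RPKM. HOXB9, at a mean of 2.39 RPKM in vitamin C cells and 3.62 RPKM in control cells, is the only gene above the line.

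The HOXB cluster (chr17:48528526-48728750, hg38) held 1246 of the 1697 HOX counts, and 9 of its 10 genes had at least 1 count. HOXB9 gave 68.0% of the cluster's counts and HOXB3 most of the others. HOXB1, the most head-ward member, had 0 counts, and HOXB13, known from prostate and from hormone receptor positive breast tumours, had 1. The summed level of the cluster was 12.2, 11.6 and 9.58 CPM in vitamin C cells 1, 2 and 3, against 12.9, 11.9 and 11.7 CPM in control cells 1, 2 and 3. No HOXB gene numbered between HOXB3 and HOXB9 came near either of them. HOXB4 had 45 counts, HOXB7 had 18, HOXB6 and HOXB8 had 4 each and HOXB5 had 1.

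The HOXA cluster (chr7:27092993-27200091) had 278 counts, and 97.8% of them fell in HOXA13, the gene at its tail-ward end, which in the embryo acts in the distal limb and the urogenital tract. HOXA4 had 1 count and HOXA7 had 3, and the neighbour of HOXA13, HOXA11, had 0. HOXA5, HOXA9 and HOXA10, which are widely used in adult epithelia and blood, also had 0 counts. The summed level of HOXA was 3.57 ± 1.18 CPM in vitamin C cells and 1.77 ± 0.709 CPM in control cells (SD, n = 3 each), nearly all of it HOXA13.

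The HOXC cluster (chr12:53938831-54056030) was close to silent, with 60 counts over the 6 libraries and none of its 9 genes reached the count filter. Its highest gene was HOXC9, with 2, 4 and 8 counts in vitamin C cells and 3, 7 and 7 counts in control cells, or 0.168 ± 0.0762 RPKM and 0.166 ± 0.0561 RPKM (SD, n = 3 each). These counts overlapped fully. HOXC6 had 14 counts, HOXC8 had 9, HOXC4 had 5, HOXC11 had 1, and HOXC5, HOXC10, HOXC12 and HOXC13 had 0.

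The HOXD cluster (chr2:176092721-176190907) had 113 counts, all but 1 of them in the head-ward genes HOXD1, HOXD3 and HOXD4. HOXD1 gave 69.0% of them. HOXD4 had 4, 4 and 5 counts in vitamin C cells and 4, 7 and 5 counts in control cells, and the groups overlapped. At the tail-ward end HOXD8, HOXD9, HOXD10, HOXD12 and HOXD13 had 0 counts and HOXD11 had 1. The summed level of HOXD was 0.890 ± 0.304 CPM in vitamin C cells and 1.17 ± 0.243 CPM in control cells (SD, n = 3 each). HOXA and HOXD thus held their reads at opposite ends of the cluster, HOXA13 in the one and HOXD1 in the other.

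Promoters of the clusters are rich in CpG, the dinucleotide that carries DNA methylation and its oxidised forms. The 250 bases before the start site could be read for 20 of the 39 genes from the RefSeq promoter table (GRCh38.p14). Genes for which no entry was used include HOXA5, HOXB2 to HOXB9, HOXB13, HOXC6, HOXC8 to HOXC13 and HOXD9. The 20 windows held a median of 20.5 CpG (range 4 to 40), against 11 in all 35114 promoters of the table, and HOXC4 and HOXC5 shared 1 window. That window (chr12:54016638-54016887) is counted for each gene, and lies well before the start of the HOXC5 gene model at 54033050. The median was 24.5 in the 8 windows of genes with at least 1 count and 17.5 in the 12 windows of genes with 0 counts. The ranges overlapped, and the shared window stands in both sets. The windows of HOXA13 and HOXD1 are shown because these genes carried most of the reads of their clusters and because each window lies within the span of a noncoding RNA of the opposite strand, HOTTIP at HOXA13 and HAGLR at HOXD1. HOXA13 (chr7:27200092-27200341, minus strand) held 40 CpG, more than 97.8% of promoters, and HOXD1 (chr2:176188418-176188667, plus strand) held 31, more than 89.1%. In the sequences, 5′ to 3′, capitals mark CpG. DNA methylation at these windows was not analysed here.
HOXA13: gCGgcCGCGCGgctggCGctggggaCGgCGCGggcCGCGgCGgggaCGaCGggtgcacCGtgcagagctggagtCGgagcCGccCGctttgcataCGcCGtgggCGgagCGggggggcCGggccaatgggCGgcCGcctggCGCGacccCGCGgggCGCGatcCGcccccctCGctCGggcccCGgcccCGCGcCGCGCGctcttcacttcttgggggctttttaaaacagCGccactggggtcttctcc
HOXD1: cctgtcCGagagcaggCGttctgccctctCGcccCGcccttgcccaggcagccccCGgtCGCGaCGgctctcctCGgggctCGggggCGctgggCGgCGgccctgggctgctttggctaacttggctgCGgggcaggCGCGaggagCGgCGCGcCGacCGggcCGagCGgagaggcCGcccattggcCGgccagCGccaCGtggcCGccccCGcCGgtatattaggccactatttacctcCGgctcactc

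Whether vitamin C changed the HOX genes was tested for the 4 that reached the count filter, HOXB9, HOXB3, HOXA13 and HOXD1, which held 89.7% of the HOX counts. They were tested together with all genes by edgeR's quasi-likelihood test, with adjustment over 15261 genes, of which 7.08% passed an adjusted p of 0.05 (3.6% higher, 3.48% lower). HOXB9 fell and HOXB3 rose, and HOXA13 and HOXD1 did not pass. DESeq2 called the same 2 genes, against 10.1% of all genes it tested, and 6.33% of genes were called by both tools. The 4 genes are those that reach the count filter and not a sample of the 39. The groups did not overlap for HOXB9, HOXB3 and HOXA13, a pattern that 32.3% of all genes tested showed (15.7% higher, 16.6% lower). The other 35 HOX genes had at most 45 counts over the 6 libraries and did not reach the filter. With a minimum count of 5, 7 HOX genes were tested and the same 2 passed. With no filter, 22 were tested and HOXA13 passed beside HOXB9 and HOXB3. The total over all HOX genes was 18.8, 15.1 and 14.7 CPM in vitamin C cells, against 15.3, 15.8 and 15.8 CPM in control cells, and overlapped.

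HOXB9, which is known for promoting invasion and mesenchymal features in breast cancer cells, was the highest HOX gene in every library. It had 95, 86 and 105 counts in vitamin C cells 1, 2 and 3, against 178, 205 and 178 counts in control cells 1, 2 and 3. Scaled to depth, these were 7.04, 6.23 and 5.27 CPM in vitamin C cells and 10.1, 9.10 and 8.85 CPM in control cells. Every vitamin C library lay below every control library. The log2 fold change was -0.61 with an SE of 0.14, or 0.656 times the control level, with an adjusted p of 0.0336 in edgeR and 0.0180 in DESeq2. In RPKM the level was 2.39 ± 0.343 in vitamin C cells and 3.62 ± 0.263 in control cells (SD, n = 3 each). The gene lies at chr17:48621156-48626358 on the minus strand, and none of its exon bases were shared with another annotated gene.

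HOXB3, which acts in the hindbrain and in blood progenitors, lies in the same cluster and moved the other way. It had 57, 67 and 70 counts in vitamin C cells, against 38, 53 and 40 counts in control cells, although the vitamin C libraries were on the whole shallower. These were 4.23, 4.85 and 3.51 CPM in vitamin C cells and 2.16, 2.35 and 1.99 CPM in control cells. All vitamin C libraries lay above all control libraries. The log2 fold change was 0.94 with an SE of 0.19, or 1.91-fold, with an adjusted p of 0.0224 in edgeR and 0.0161 in DESeq2. The gene model is long (chr17:48548870-48604912, minus strand), and 11.7% of its exon bases were shared with HOXB4, HOXB6 or antisense RNAs of the cluster, whose own counts were 45 or fewer. It spans HOXB4, HOXB5 and most of HOXB6, and only its 5′ end lies 16.2 kb from HOXB9.

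For every read in HOXB9 there were 0.6, 0.779 and 0.667 reads in HOXB3 in vitamin C cells, against 0.213, 0.259 and 0.225 in control cells. This ratio does not depend on how libraries are scaled and was looked at after the direction of both genes was known, so no test is given. HOXB9 made up 37.4%, 41.3% and 35.8% of all HOX counts in vitamin C cells, against 66.2%, 57.6% and 56.2% in control cells. In bulk RNA a lower level per cell and fewer cells with the transcript cannot be told apart.

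Both calls depended on single libraries. With a single library left out, the log2 fold change of HOXB9 ranged between -0.71 and -0.50 and that of HOXB3 between 0.82 and 1.06. The edgeR adjusted p of HOXB9 became 0.124 when control 1 was removed, 0.0949 for control 2, 0.0542 for control 3 and 0.0594 for vitamin C 2. It was 0.0469 when vitamin C 1 was removed and 0.0498 for vitamin C 3. For HOXB3 the edgeR adjusted p became 0.0834 when control 1 was removed, 0.0673 for control 2, 0.0538 for control 3, 0.0541 for vitamin C 1 and 0.0556 for vitamin C 2. It was 0.00929 when vitamin C 3 was removed. Over all genes the number of calls moved as well, to between 128 and 1900.

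**Figure D2:**
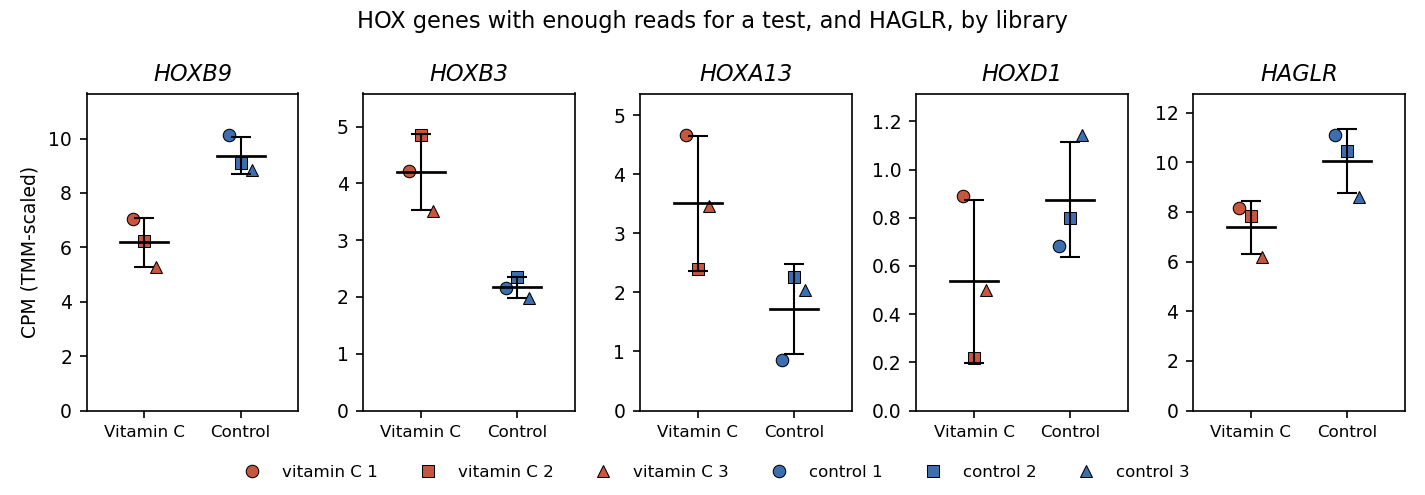
TMM-scaled CPM of the 4 HOX genes that reached the count filter and of the lncRNA HAGLR (vertical axis, from 0, own scale per panel) in 3 vitamin C and 3 control libraries, with the mean as a long bar and the SD as whiskers. Vitamin C libraries lie wholly below control libraries for HOXB9 and HAGLR, wholly above for HOXB3 and HOXA13, and overlap them for HOXD1.

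HOXA13 had 63, 33 and 69 counts in vitamin C cells, against 15, 51 and 41 counts in control cells. These were 4.67, 2.39 and 3.46 CPM in vitamin C cells and 0.854, 2.26 and 2.04 CPM in control cells. The groups were separated by a narrow gap, between vitamin C 2 and control 2, and control 1 was far below the other control libraries. The log2 fold change was 0.99 with an SE of 0.32, and the adjusted p was 0.0781 in edgeR and 0.0537 in DESeq2. The estimate was larger than that of HOXB3 and its error larger too. Without control 1 the log2 fold change was 0.70 and the edgeR adjusted p was 0.211. With each library left out in turn the edgeR adjusted p was between 0.0629 and 0.219. The gene passed with edgeR's likelihood ratio test (adjusted p = 0.0278) and exact test (adjusted p = 0.0285), and with no filter on low counts (adjusted p = 0.00132). These alternatives called 1982, 1933 and 2245 genes over all genes, against 1080 in the fit as reported. HOXA13 did not pass with limma's voom (adjusted p = 0.0842). Nor did it pass in edgeR with a block for the replicate number (adjusted p = 0.105) or after thinning to equal depth (adjusted p = 0.102).

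HOXD1, the most head-ward member of its cluster, had 12, 3 and 10 counts in vitamin C cells, against 12, 18 and 23 counts in control cells. The groups overlapped. The 3 counts of vitamin C 2 have a 95% exact Poisson interval of 0.619 to 8.77 counts, which covers counting error only. The log2 fold change was -0.72 with an SE of 0.42 and an edgeR adjusted p of 0.296. It was -1.19 when vitamin C 1 was removed and -0.40 when vitamin C 2 was removed. Of the exon bases of HOXD1, 60.1% are also annotated to genes of the opposite strand, HAGLR among them. Whether the counting used strand is not given. Ambiguous reads were set apart in every library. Without strand, reads of the shared bases would be among them, and the level of HOXD1 may be understated.

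**Figure D3:**
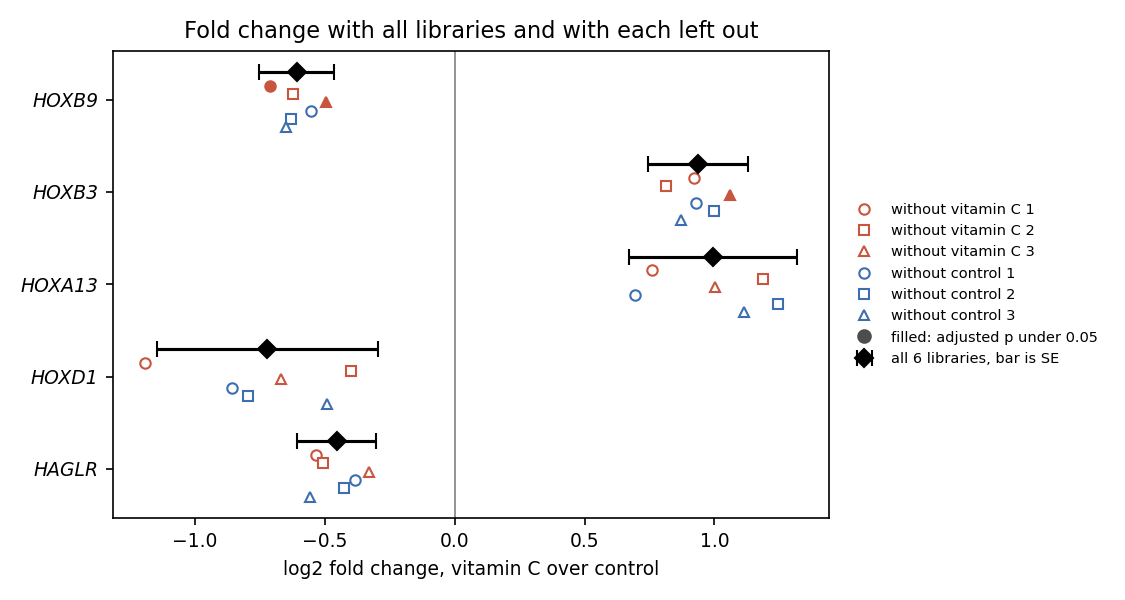
Log2 fold change, vitamin C over control (horizontal axis), of the 4 HOX genes that reached the count filter and HAGLR with all 6 libraries (diamond, bar is 1 SE) and with each library left out (open symbols, filled where the edgeR adjusted p was under 0.05). The sign of each gene is the same in all 7 fits, and HOXB9 and HOXB3 are filled in 2 and 1 of the 6 reduced fits.

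The noncoding RNAs of the clusters had few reads apart from 1 gene. Of 18 listed antisense and intergenic RNAs, 8 had 0 counts, among them HOTAIR, the HOXC transcript known for its link to metastasis in breast cancer. The exception was HAGLR (chr2:176164051-176188958, minus strand), which runs antisense through the HOXD1 and HOXD3 end of HOXD. It had 110, 108 and 123 counts in vitamin C cells, against 195, 235 and 173 counts in control cells, more than the whole of the HOXD protein-coding genes. All vitamin C libraries lay below all control libraries, as for 16.6% of all genes tested. HAGLR was at 8.15, 7.82 and 6.17 CPM in vitamin C cells, against 11.1, 10.4 and 8.60 CPM in control cells. The log2 fold change was -0.45 with an SE of 0.15 and an edgeR adjusted p of 0.0840, which did not pass. HOTTIP, which in other cells tethers WDR5 to the tail-ward HOXA genes, lies beside HOXA13 on the other strand. It had 9, 2 and 7 counts in vitamin C cells and 3, 3 and 3 counts in control cells, too few for a test. The microRNA genes MIR10B, MIR196A1, MIR196A2 and MIR615 of the clusters were at 0 counts, in libraries that were not made for small RNAs.

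Of the 10 TALE cofactor genes reported here, 8 were tested, and none of these 8 passed in edgeR or DESeq2. Their median log2 fold change was -0.02, against 0.02 over all genes tested. At an unadjusted edgeR p under 0.05 there were 0 higher and 1 lower, against 27.4% of all genes tested in either direction. TGIF1, a TALE repressor, was at 45.4 ± 7.64 CPM in vitamin C cells and 45.8 ± 2.63 CPM in control cells, and the HOX partner PBX3 was at 40.7 ± 3.48 CPM in vitamin C cells and 36.2 ± 2.93 CPM in control cells (SD, n = 3 each). Both overlapped between groups. MEIS1, the partner best known from HOXA9-driven leukaemia, was low and overlapped between groups, at 0.866 ± 0.297 CPM in vitamin C cells and 0.884 ± 0.271 CPM in control cells (SD, n = 3 each).

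Most listed genes of the complexes that silence HOX clusters were well expressed, and none of those tested passed in edgeR. EPOP had 0 counts, and PCGF2, PHC1 and CBX7 were under 1 RPKM in both groups. Of Polycomb repressive complex 2, which methylates histone H3 at lysine 27, 11 of 12 genes were tested, 0 rose and 0 fell, with a median log2 fold change of -0.10. At an unadjusted p under 0.05 there were 1 higher and 3 lower, where 27.4% of all genes tested had such a p in either direction. DESeq2 called 1 lower, JARID2, against 10.1% of all genes it tested. Its catalytic subunit EZH2 was at 197 ± 13.8 CPM in vitamin C cells and 209 ± 3.65 CPM in control cells, SUZ12 at 173 ± 19.0 CPM and 164 ± 9.58 CPM, and RBBP7 at 360 ± 8.64 CPM and 385 ± 10.1 CPM (SD, n = 3 each). Of Polycomb repressive complex 1, which binds that mark and ubiquitinates histone H2A, 16 of 16 genes were tested, 0 rose and 0 fell, with a median of -0.05. There were 2 higher and 1 lower at an unadjusted p under 0.05, and DESeq2 called 1 lower, BMI1. The most abundant member, PCGF5, was at 184 ± 3.28 CPM in vitamin C cells and 197 ± 10.5 CPM in control cells (SD, n = 3 each), and the groups overlapped.

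None of the opposing regulators passed either. Of the 12 Trithorax-type and H3K27 demethylase genes, all were tested, 0 rose and 0 fell in edgeR or in DESeq2, and the median log2 fold change was 0.22, against 0.02 over all genes tested. At an unadjusted p under 0.05 there were 4 higher and 0 lower, against the same 27.4% of all genes tested. KMT2A, the methyltransferase that maintains HOX expression, was at 293 ± 49.0 CPM in vitamin C cells and 253 ± 12.4 CPM in control cells, and the groups overlapped. The TET enzymes, which oxidise 5-methylcytosine with vitamin C as a cofactor, had log2 fold changes of 0.02 to 0.13, and 0 of the 3 passed in edgeR or DESeq2 or had an unadjusted edgeR p under 0.05.

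**Figure D4:**
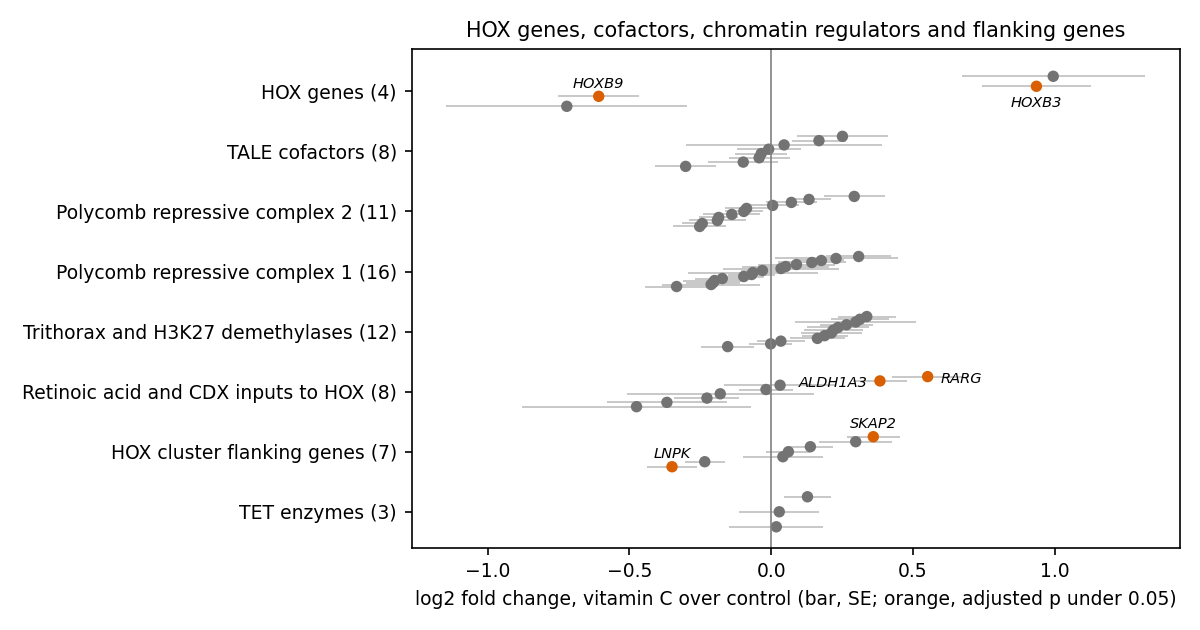
Log2 fold change, vitamin C over control, with SE (horizontal axis) of each tested gene in the HOX family and in 7 lists of related genes (rows, number tested in parentheses), with genes of adjusted p under 0.05 in edgeR in orange. HOXB9 at -0.61 and HOXB3 at 0.94 lie outside the range of the listed genes shown, -0.48 to 0.55. HOXA13 at 0.99 and HOXD1 at -0.72, which did not pass, lie outside it too. The Trithorax row has a median of 0.22.

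Retinoic acid and the CDX homeodomain proteins switch HOX clusters on in the embryo, HOXB and HOXA foremost. Of 17 listed genes, 8 were tested, 2 rose, 0 fell and 6 did not pass, against 3.6% of all genes tested that rose and 3.48% that fell. The median log2 fold change was -0.10, against 0.02 over all genes tested. RARG, a retinoic acid receptor, was at 12.5 ± 1.52 CPM in vitamin C cells and 8.52 ± 0.524 CPM in control cells (SD, n = 3 each). Its log2 fold change was 0.55 with an SE of 0.13 (edgeR adjusted p = 0.0317). ALDH1A3, an enzyme that makes retinoic acid, was at 25.5 ± 1.58 CPM in vitamin C cells and 19.6 ± 1.13 CPM in control cells. Its log2 fold change was 0.38 with an SE of 0.09 (edgeR adjusted p = 0.0372). Neither gene overlapped between groups, where 15.7% of all genes tested lay wholly higher. Both were named because they passed. The edgeR adjusted p of RARG became 0.119 when control 1 was removed, 0.0904 for control 2, 0.0584 for control 3 and 0.101 for vitamin C 1. That of ALDH1A3 was between 0.0561 and 0.111 with each of the 6 libraries removed in turn, and 0.0681 with a block for the replicate number. CDX2 and CDX4 had 0 counts and CDX1 had 1.

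Among the genes next to the clusters 1 passed beside HOXD and 1 beside HOXA. Of 8 listed flanking genes, 7 were tested, 1 rose, 1 fell and 5 did not pass, against 3.6% of all genes tested that rose and 3.48% that fell. The median log2 fold change was 0.06, against 0.02 over all genes tested. LNPK, a gene of the endoplasmic reticulum beside HOXD, was at 147, 136 and 154 CPM in vitamin C cells and 207, 182 and 170 CPM in control cells (log2 fold change -0.35, SE 0.09, edgeR adjusted p = 0.0390). MTX2, on the other side of HOXD, was at 72.6 ± 2.50 CPM in vitamin C cells and 85.4 ± 2.86 CPM in control cells and did not pass (edgeR adjusted p = 0.0637). SKAP2, an adaptor protein gene beside HOXA, was at 72.4, 64.6 and 76.7 CPM in vitamin C cells and 49.8, 60.5 and 56.3 CPM in control cells (log2 fold change 0.36, SE 0.09, edgeR adjusted p = 0.0442). The edgeR adjusted p of LNPK became 0.138 when control 1 was removed, 0.104 for control 2, 0.0981 for vitamin C 1 and 0.0875 for vitamin C 2. It was 0.0594 with the replicate block and 0.0603 after thinning to equal depth. For SKAP2 the edgeR adjusted p became 0.153 when control 1 was removed, 0.0821 for control 2, 0.0790 for control 3, 0.112 for vitamin C 1 and 0.0623 for vitamin C 3. It was 0.0644 with the replicate block and 0.0555 after thinning.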

How the data were processed

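Ribosomal RNA-depleted total RNA of 6 wells was sequenced. The submitters' processing notes name CASAVA 1.4, Trim Galore, STAR and the build hg38. For each library the authors deposited a table of raw read counts per Ensembl gene, without normalization. The release of Ensembl, the strand setting and the version of STAR were not given in the sources used here. Summary lines (4 per file, 50.6% to 69.7% of reads) entered neither library sizes nor tests. The sample titles gave the groups and replicate numbers.

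Symbols, positions and exon lengths came from GENCODE 44, which held 56558 of 60675 identifiers. Genes were tested in R 4.3.3 with edgeR 4.0.16 (TMM factors, filterByExpr with a minimum count of 10, quasi-likelihood F test, Benjamini-Hochberg adjustment over 15261 genes, no covariate). The biological coefficient of variation was 9.40%. DESeq2 1.42.0 and limma 3.58.1 (voom) were alternatives, as were other factors, filters, edgeR tests and thresholds, a replicate block, thinning and each library left out. A correction for GC content and length and the removal of control 1 and vitamin C 2 together were added after seeing the data. The fits were tested on simulated data.

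The HOX genes, gene lists and alternatives were chosen with earlier results of these data known. HOX genes that passed, did not overlap or led their cluster are named with values by library. HOXD4 was also given by library, and most other HOX genes are named with their counts over the 6 libraries. Named in each list are up to 4 called genes or the most abundant ones. SPARC, JARID2, EPOP, BMI1, PCGF2, PHC1, CBX7, MEIS1, MTX2, HOTAIR, HOTTIP and the CDX genes are named beyond this rule, having been picked with their values in view. The 5-hydroxymethylcytosine assays of the study were not analysed here. The values of 3 genes from the family and the lists are not reported here, and list counts leave out those of the lists.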

Additional observations from a re-analysis of the deposited data

How the results depend on the processing

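Over all genes 1080 passed, and 2 HOX genes. The count over all genes moved to 2245 with no filter, 1982 with the likelihood ratio test, 1933 with the exact test and 2466 at an adjusted p under 0.10. With each library left out in turn it ranged between 128 and 1900, and that of HOX genes between 0 and 2. Without control 1 and vitamin C 2 together it was 268, and 0 HOX genes passed, with edgeR adjusted p of 0.106 for HOXB3 and 0.120 for HOXB9. HOX genes called expressed numbered 1 at 1 RPKM, 3 at 0.5 RPKM, 8 at 0.1 RPKM and 4 by the count filter. Calls were 50.8% higher with TMM factors, 64.6% with upper-quartile factors, 40.8% in DESeq2 and 37.7% with the correction for GC content and length. HOXB9 and HOXB3 were called under every other factor, filter, test and tool run. At the threshold of 0.05 HOXA13 passed under 3 alternatives and HAGLR under 2 (no filter, edgeR adjusted p = 0.0337, and likelihood ratio test, 0.0491), and both lay under 0.10 in the fit as reported. HOXB9, HOXB3, HOXA13, HOXD1 and HAGLR kept their direction in every fit that tested them. With the replicate block 731 genes passed, HOXB9 and HOXB3 among them. Deviations of libraries with the same number correlated at -0.02, -0.06 and -0.05, so the numbers were not taken to pair the wells. Counts of 3 to 23 per library limit HOXD1, and counts of 45 or fewer in all limit the 35 HOX genes below the filter.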

Other observations

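Most of the listed ParaHox and related homeobox genes had few or no reads. Of 10 listed ParaHox and related genes, 5 had 0 counts, among them EVX1 and EVX2, which adjoin the tail-ward ends of HOXA and HOXD. MNX1, a motor neuron and pancreas gene, was the only 1 tested. It was at 0.797 ± 0.112 CPM in vitamin C cells and 1.21 ± 0.119 CPM in control cells (SD, n = 3 each). Its groups did not overlap, where 16.6% of all genes tested lay wholly lower, and its edgeR adjusted p was 0.186.

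Among the other transcripts within the clusters, ENSG00000257178, a lncRNA of HOXB chosen after its values were seen, had 13, 3 and 9 counts in vitamin C cells and 5, 11 and 11 counts in control cells. Counting all annotated genes inside the cluster spans that are not HOX genes, 952 counts fell in HOXD, 60 in HOXB, 31 in HOXA and 5 in HOXC.

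The letters ACGTG, searched on both strands so that CACGTG counts on each, stood in 13 of the 20 HOX promoter windows read (65.0%), against 18.5% of all 35114 windows of 250 bases. The letters GCGTG stood in 7 of 20 (35.0%), against 32.2% of all windows. The window shared by HOXC4 and HOXC5 held both sets of letters and is counted for each gene. The HOX windows also had more CpG, with an observed to expected ratio above 0.6 in 18 of 20, against 47.5% of all windows, and both sets of letters contain that dinucleotide. HOXA13 held neither.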
